A study of Mus musculus with 16 samples.

Results

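BMP and TGF-beta signalling was followed through 38 genes for ligands, receptors, SMAD proteins and extracellular antagonists, measured on arrays of mouse brain tumours and normal brain. A gene was included where the array annotation gave a probe set its symbol alone. All 38 were found, with 1 probe set each, among 19936 genes so defined. The 16 arrays fell into 4 groups of 4. In p53-/-RBPjk-/- tumours, Cre from a Hes5::CreERT2 transgene (Hes5 is a gene of neural stem cells) had removed p53 and RBPjk, and no retrovirus was used, so Pdgfb was wild type. PDGF+p53-/-RBPjk-/- tumours were made with a retrovirus that delivers both Cre and PDGF-B, a ligand that drives glial precursor growth, in mice floxed for both p53 and RBPjk. In PDGF+p53-/- tumours the same retrovirus was used in mice floxed for p53, with RBPjk wild type. Control brain was normal tissue, wild type for Pdgfb, p53 and RBPjk. RBPjk, written RBPJ by current usage, is the DNA-binding effector of Notch signalling. All tumours carried a GFP reporter switched on by Cre, which guided their dissection when the mice became symptomatic, so a tumour sample can also hold host brain cells. The labels give neither age nor strain. They number the replicates without stating that each is another animal, and the p-values therefore reflect only the spread among these samples, which may in part be technical.

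BMPs, TGF-betas and activins are secreted dimers that bring type I and type II receptor kinases together at the cell surface. The type I receptor then phosphorylates receptor SMADs, which enter the nucleus with SMAD4. BMP receptors act mainly on SMAD1 and SMAD5, TGF-beta and activin receptors on SMAD2 and SMAD3, while SMAD6 and SMAD7 are inhibitory. Antagonists such as noggin and chordin bind BMPs outside the cell. In the brain BMP signals are known for directing neural precursors toward astrocytes and away from oligodendrocytes, and Notch signalling shares target genes such as Hey1 with the pathway.

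The upstream sequences are shown for 3 genes, chosen from the 25 of the 38 with an annotated promoter. Smad5 had the largest rise among the SMADs, Bmpr1a rose in all tumour types, and Bmpr1b, a BMP type I receptor, fell in both PDGF types. Each run is the 250 bases before an annotated start site, from RefSeq on GRCm38.p6, written on the strand of the gene. Smad5 is at chr13:56703418-56703667 on the plus strand, Bmpr1a at chr14:34502547-34502796 on the minus strand and Bmpr1b at chr3:141982265-141982514 on the minus strand. Capitals mark matches on either strand to TGGGAA, the core of the RBPJ motif, to GGCGCC, a GC-rich motif of BMP SMADs, or to CAGAC, the SMAD box.
Smad5: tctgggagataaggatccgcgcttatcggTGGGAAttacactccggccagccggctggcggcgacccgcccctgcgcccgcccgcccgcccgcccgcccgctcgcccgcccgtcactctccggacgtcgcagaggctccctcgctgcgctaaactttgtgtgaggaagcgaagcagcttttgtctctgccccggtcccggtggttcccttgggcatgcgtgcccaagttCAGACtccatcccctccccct
Bmpr1a: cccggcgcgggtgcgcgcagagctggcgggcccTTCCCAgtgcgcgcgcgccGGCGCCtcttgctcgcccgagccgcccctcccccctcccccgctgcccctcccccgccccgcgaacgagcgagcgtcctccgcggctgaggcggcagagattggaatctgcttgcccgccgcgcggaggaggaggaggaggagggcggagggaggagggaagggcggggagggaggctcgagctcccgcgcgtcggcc
Bmpr1b: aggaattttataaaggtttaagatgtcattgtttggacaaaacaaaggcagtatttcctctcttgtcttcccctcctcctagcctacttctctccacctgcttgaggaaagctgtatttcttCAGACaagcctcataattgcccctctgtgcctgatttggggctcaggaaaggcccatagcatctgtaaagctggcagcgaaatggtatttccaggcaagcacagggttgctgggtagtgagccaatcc
Smad5 and Bmpr1b each have 3 start sites in the table, and the window with most matches is printed. Of the 38 genes, 25 had an entry, with 31 windows. TGGGAA lay in 5 of these 31 windows (16.1%), against 21.6% of all 32851 windows of the same length. GGCGCC was present in 6 (19.4%, against 9.59% of all windows) and CAGAC in 14 (45.2%, against 42.2%). No matches overlapped in the printed windows. Such a match is a description of letters and does not show that a factor binds there.

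Values are log2 expression as deposited, listed by replicate number, and differences are of group means on the log2 scale with the standard error (SE) of a fit across all 16 arrays. A gene is said to have risen or fallen where limma's test gave an adjusted p under 0.05 (Benjamini-Hochberg over all 19936 genes, two-sided). The levels of different probe sets are not compared with each other. The 3 comparisons with control brain share the same 4 control arrays. Array medians lay between 5.97 and 6.06, and arrays of 1 group correlated with r of 0.967 to 0.984.

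Against control brain, 19 of the 38 genes changed in p53-/-RBPjk-/- tumours, 18 in PDGF+p53-/-RBPjk-/- tumours and 16 in PDGF+p53-/- tumours. The p53-/-RBPjk-/- changes were 6 rises and 13 falls (50% of the genes, where 36.8% of all genes passed the test, 16.4% higher and 20.4% lower). PDGF+p53-/-RBPjk-/- tumours had 9 rises and 9 falls (47.4%, where 33.6% of all genes passed, 15.7% higher and 17.9% lower), and PDGF+p53-/- tumours 8 rises and 8 falls (42.1%, where 31.1% of all genes passed, 13.6% higher and 17.6% lower). The values of the groups did not overlap for 17 of the 19, 16 of the 18 and 13 of the 16. Among all genes this held for 6220 of 7330, 5953 of 6702 and 5199 of 6208 called (31.2%, 29.9% and 26.1% of all genes). The median difference over the 38 genes was -0.24, -0.16 and 0.03 in the same order, beside -0.02, -0.03 and -0.04 over all genes. Receptors changed most often, with 7 of 10 past the test in each tumour type, each time 2 rises and 5 falls.

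**Figure D1:**
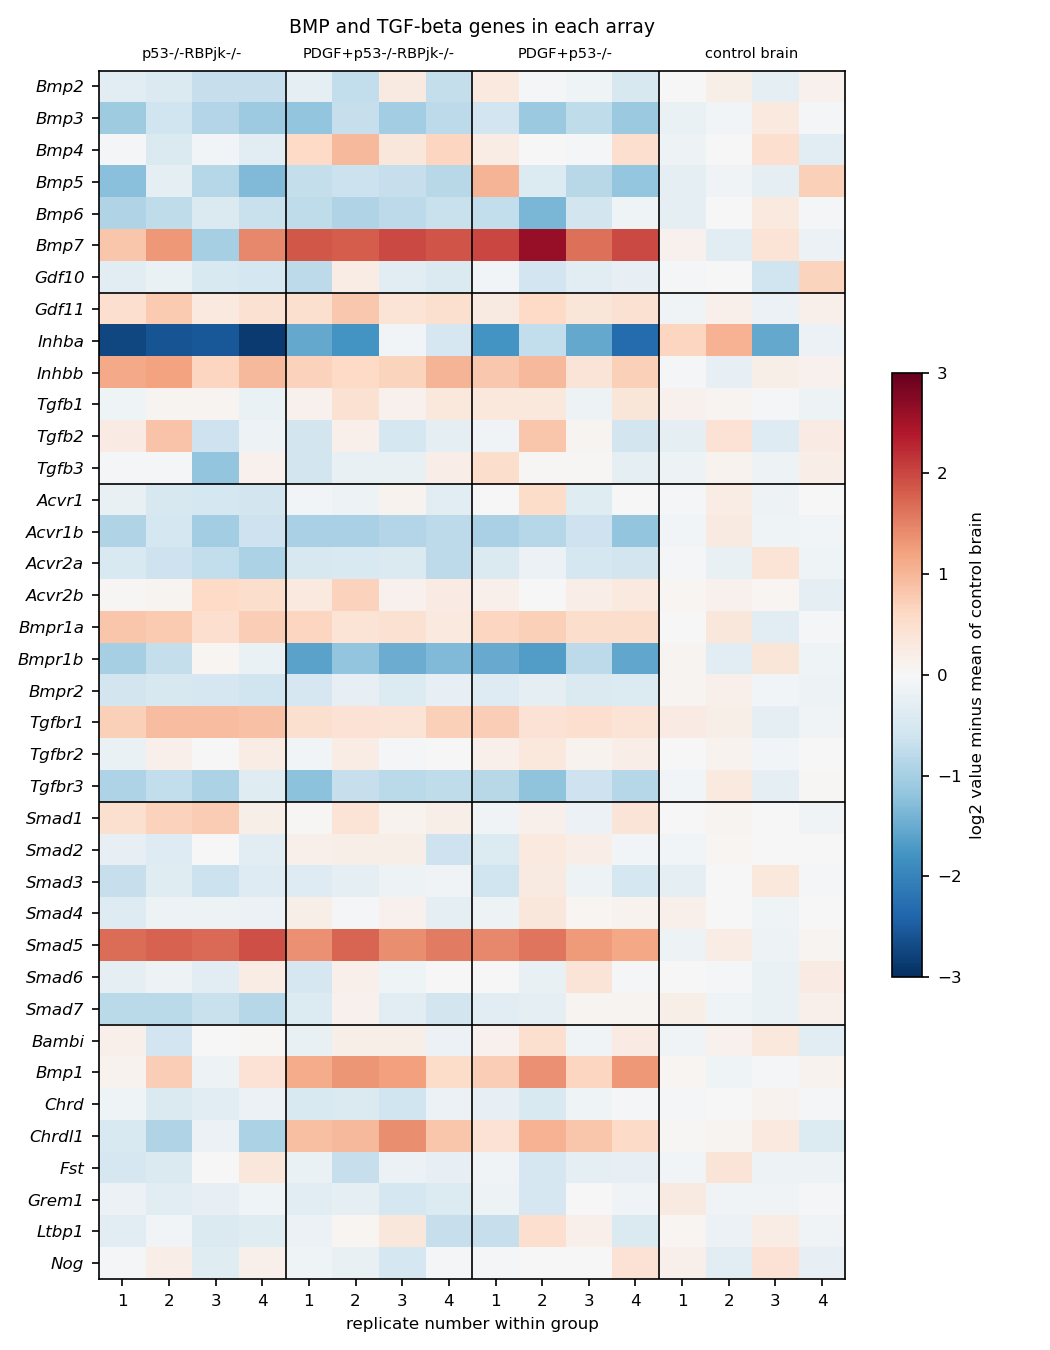
Each row is 1 gene, grouped from top to bottom as BMP ligands, TGF-beta and activin ligands, receptors, SMAD proteins, and antagonists with extracellular modulators; each column is 1 array. Colour gives the log2 value minus the mean of the 4 control arrays, red for higher and blue for lower, and Smad5 is red in all 12 tumour arrays while Bmp3 is blue.

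Markers of several cell types moved with the same groups. All 11 measured neuron markers fell in every tumour type: the mean of the list was 6.30 to 7.73 in p53-/-RBPjk-/- tumours, 6.98 to 8.35 in PDGF+p53-/-RBPjk-/- tumours and 7.24 to 8.86 in PDGF+p53-/- tumours, against 10.57 to 10.59 in control brain. All 9 oligodendrocyte precursor markers rose, with list means of 9.36 to 9.85, 9.70 to 9.88 and 9.70 to 9.95, against 7.37 to 7.58 in control brain. All 9 markers of dividing cells rose as well. Astrocyte markers fell for 8 of 10 in each tumour type, and oligodendrocyte markers for 7, 6 and 7 of 9. Choroid plexus and ependyma markers fell for 3, 5 and 3 of 9 (1 rose in p53-/-RBPjk-/- tumours), and markers of meninges and fibroblasts for 5, 4 and 4 of 13 (1 rose in p53-/-RBPjk-/- tumours). Endothelial markers fell for 3, 2 and 2 of 8 (1 rose in p53-/-RBPjk-/- tumours), and microglial markers for 4, 1 and 1 of 7 while 1 rose in each. Mural cell markers fell for 2 of 10 in each and rose for 1, 2 and 0, and myeloid markers fell for 2, 1 and 1 of 11 and rose for 3, 1 and 2. These counts follow the order p53-/-RBPjk-/-, PDGF+p53-/-RBPjk-/- and PDGF+p53-/- tumours. Among all genes, 20.4%, 17.9% and 17.6% fell and 16.4%, 15.7% and 13.6% rose in the same order. The falls of mural and myeloid markers, and of microglial markers in the PDGF types, lay near or below those shares. The part of these shifts in the gene results was not tested. In such bulk samples, fewer cells of a type and less RNA per cell cannot be told apart. PDGF+p53-/- replicate 3 had the highest neuron mean of its group (8.86, against 7.24 to 7.44), and without it 15 of the 38 genes were called against control brain. Replicate 3 of the p53-/-RBPjk-/- tumours had the highest of its own (7.73, against 6.30 to 6.84), and without it 17 were called. Replicate 3 of the PDGF+p53-/-RBPjk-/- tumours also had the highest of its group (8.35, against 6.98 to 7.52), and without it 18 were called.

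Among the BMP ligands, Bmp7 was higher and Bmp3 and Bmp6 were lower in tumours made with PDGF-B, and Bmp3 and Bmp6 fell in p53-/-RBPjk-/- tumours too. Bmp7, a ligand with roles in kidney, eye and brain development, read 7.48, 7.94, 5.65 and 8.09 in p53-/-RBPjk-/- tumours. It read 8.51, 8.47, 8.62 and 8.54 in PDGF+p53-/-RBPjk-/- tumours and 8.65, 9.27, 8.29 and 8.63 in PDGF+p53-/- tumours, against 6.77, 6.30, 7.05 and 6.46 in control brain. All 8 arrays of PDGF tumours lay above all control arrays, whereas p53-/-RBPjk-/- replicate 3 lay below every control array and the other 3 above. The Bmp7 difference from control brain was 2.06 ± 0.37 in PDGF+p53-/- tumours (4.18-fold, adjusted p = 0.000341) and 1.89 ± 0.37 in PDGF+p53-/-RBPjk-/- tumours (3.71-fold, adjusted p = 0.000667). In p53-/-RBPjk-/- tumours it was 0.65 ± 0.37 (adjusted p = 0.202), and without replicate 3 it was 1.19 (adjusted p = 0.000272).

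Bmp3, a family member known to oppose other BMPs in bone, read 5.11, 5.58, 5.29 and 5.08 in p53-/-RBPjk-/- tumours, 5.0, 5.47, 5.12 and 5.39 in PDGF+p53-/-RBPjk-/- tumours and 5.59, 5.06, 5.41 and 5.06 in PDGF+p53-/- tumours. Control brain read 5.99, 6.10, 6.47 and 6.15, so that every tumour array lay below every control array. Bmp3 fell in these 3 tumour types, with differences of -0.91 ± 0.16 (adjusted p = 0.000178), -0.93 ± 0.16 (adjusted p = 0.000182) and -0.90 ± 0.16 (adjusted p = 0.000295). Bmp6, known for its role in iron balance through the liver, read 5.86, 6.01, 6.33 and 6.09 in p53-/-RBPjk-/- tumours and 6.01, 5.87, 5.97 and 6.09 in PDGF+p53-/-RBPjk-/- tumours. In PDGF+p53-/- tumours Bmp6 read 6.04, 5.40, 6.21 and 6.64, against 6.50, 6.78, 7.05 and 6.73 in control brain. Only the last of these tumour types overlapped the controls, through its replicate 4. Bmp6 fell in all 3, with differences of -0.69 ± 0.20, -0.78 ± 0.20 and -0.69 ± 0.20 (adjusted p = 0.00918, 0.00459 and 0.0113) for p53-/-RBPjk-/-, PDGF+p53-/-RBPjk-/- and PDGF+p53-/- tumours.

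Bmp4, a ligand that drives astrocyte formation from neural precursors, differed among the tumours. It read 6.64, 6.25, 6.62 and 6.38 in p53-/-RBPjk-/- tumours, 7.30, 7.66, 7.02 and 7.35 in PDGF+p53-/-RBPjk-/- tumours and 6.91, 6.68, 6.63 and 7.18 in PDGF+p53-/- tumours, against 6.54, 6.69, 7.19 and 6.35 in control brain. Bmp4 passed the test against control brain in PDGF+p53-/-RBPjk-/- tumours (0.64 ± 0.18, adjusted p = 0.0104), with control replicate 3 inside the tumour range. In PDGF+p53-/- tumours its difference was 0.16 ± 0.18 (adjusted p = 0.579), and the direct comparison of both PDGF types is given further on. Bmp2 fell by 0.53 (adjusted p = 0.0496) and Bmp5 fell by 0.93 (adjusted p = 0.049) in p53-/-RBPjk-/- tumours. Both lay close to the threshold. The Bmp2 call was lost without any 1 of 9 arrays (control replicates 1, 2 and 4, PDGF+p53-/- replicates 2 and 3, PDGF+p53-/-RBPjk-/- replicate 1, p53-/-RBPjk-/- replicates 2, 3 and 4), with adjusted p of 0.0568 to 0.122 and differences of -0.57 to -0.48. For Bmp5, leaving out any 1 of 12 arrays did so (all but PDGF+p53-/- replicates 1, 3 and 4 and p53-/-RBPjk-/- replicate 2), with adjusted p of 0.0523 to 0.167 and differences of -1.03 to -0.69. In the PDGF types Bmp2 and Bmp5 were not past the test, but PDGF+p53-/- replicate 1 read 7.21 for Bmp5, above the other 3 arrays of its group at 5.03 to 5.79. Without that array Bmp5 passed the test in PDGF+p53-/- tumours (-0.80, adjusted p = 0.0316) and in PDGF+p53-/-RBPjk-/- tumours (-0.72, adjusted p = 0.0299). In PDGF+p53-/-RBPjk-/- tumours it also passed with only that group and control brain in the fit (-0.72, adjusted p = 0.0134). The Bmp5 values there, 5.37 to 5.54, did not overlap those of control brain, 5.89 to 6.90. Without PDGF+p53-/-RBPjk-/- replicate 3, which read 6.34 for Bmp2, Bmp2 fell by 0.58 in that group (adjusted p = 0.0221). Gdf10, a relative of Bmp3, passed the test in no comparison, with means of 5.61, 5.65 and 5.67 in the tumours and 5.98 in control brain.

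Of the TGF-beta and activin ligands, Inhbb and Gdf11 rose in every tumour type, Inhba fell in p53-/-RBPjk-/- and PDGF+p53-/- tumours, and the TGF-betas themselves did not pass the test. Inhbb, the beta B subunit of activins and inhibins, read 6.44, 6.52, 5.95 and 6.29 in p53-/-RBPjk-/- tumours, 6.01, 5.91, 5.97 and 6.33 in PDGF+p53-/-RBPjk-/- tumours and 6.14, 6.29, 5.70 and 6.04 in PDGF+p53-/- tumours. With 5.25, 5.08, 5.50 and 5.44 in control brain, no tumour array overlapped the controls. The rises were 0.99 ± 0.16 (adjusted p = 5.85e-05), 0.74 ± 0.16 (adjusted p = 0.00111) and 0.73 ± 0.16 (adjusted p = 0.00145). Gdf11, a ligand close to myostatin that signals through activin receptors, averaged 6.78 ± 0.21, 6.82 ± 0.18 and 6.69 ± 0.14 in the same order of tumour types and 6.27 ± 0.17 in control brain (SD, n = 4 each). It rose by 0.51 (adjusted p = 0.00546), 0.54 (adjusted p = 0.00377) and 0.42 (adjusted p = 0.022). In the last of these types the Gdf11 call was lost without control replicate 1 (0.38, adjusted p = 0.0615), control replicate 3 (0.36, 0.0735) or PDGF+p53-/- replicate 2 (0.36, 0.0711), and with housekeeping centring (0.31, 0.0653).

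Inhba, the beta A subunit of activins, which neurons induce with activity, read 5.58, 5.73, 5.78 and 5.45 in p53-/-RBPjk-/- tumours. It read 6.79, 6.53, 8.25 and 7.80 in PDGF+p53-/-RBPjk-/- tumours and 6.53, 7.58, 6.79 and 6.01 in PDGF+p53-/- tumours, against 8.96, 9.37, 6.79 and 8.15 in control brain. The p53-/-RBPjk-/- arrays lay below all others, while the PDGF tumours overlapped the controls, of which replicate 3 was the lowest. Inhba fell by 2.69 ± 0.46 in p53-/-RBPjk-/- tumours (6.43-fold, adjusted p = 0.00015), the largest difference among the 38 genes in any comparison. It fell by 1.59 ± 0.46 in PDGF+p53-/- tumours (adjusted p = 0.0135), a call lost without control replicate 2 (-1.24, adjusted p = 0.0568) or PDGF+p53-/- replicate 4 (-1.35, adjusted p = 0.0503). In PDGF+p53-/-RBPjk-/- tumours the Inhba difference was -0.98 ± 0.46 (adjusted p = 0.122), or -1.49 (adjusted p = 0.00842) without control replicate 3. Neuron markers had list means of 6.30 to 7.73 in p53-/-RBPjk-/- tumours, against 10.57 to 10.59 in control brain. The means were 6.98 to 8.35 in PDGF+p53-/-RBPjk-/- tumours, where Inhba was not called, and 7.24 to 8.86 in PDGF+p53-/- tumours. Control replicate 3, the lowest control for Inhba, had a neuron mean of 10.58. In p53-/-RBPjk-/- tumours, replicate 3 had both the highest Inhba (5.78) and the highest neuron mean (7.73). The same held for PDGF+p53-/-RBPjk-/- replicate 3 (8.25 and 8.35). In PDGF+p53-/- tumours, Inhba was highest in replicate 2 (7.58) and the neuron mean in replicate 3 (8.86). The part of neurons in the Inhba result was not tested. Tgfb1, Tgfb2 and Tgfb3 had differences from control brain between -0.30 and 0.25, and their lowest adjusted p was 0.167.

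Receptors moved in both directions, and most did so in all 3 tumour types. Bmpr1a and Tgfbr1, type I receptors for BMPs and for TGF-beta, rose in all 3. Bmpr2 and Acvr2a, type II receptors, fell in all 3, as did Acvr1b, a type I receptor for activins, and Tgfbr3, a co-receptor known as betaglycan. Bmpr1b, the second BMP type I receptor, fell in the PDGF types.

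Tgfbr1 read 7.99, 8.18, 8.20 and 8.16 in p53-/-RBPjk-/- tumours, 7.75, 7.71, 7.68 and 7.98 in PDGF+p53-/-RBPjk-/- tumours and 8.0, 7.70, 7.78 and 7.68 in PDGF+p53-/- tumours, against 7.50, 7.44, 6.97 and 7.15 in control brain. No tumour array overlapped the controls, and Tgfbr1 rose by 0.86 ± 0.13 (adjusted p = 3.35e-05), 0.51 ± 0.13 (adjusted p = 0.00451) and 0.52 ± 0.13 (adjusted p = 0.00453). Bmpr1a read 9.33, 9.28, 8.99 and 9.23 in p53-/-RBPjk-/- tumours, 9.14, 8.89, 8.95 and 8.79 in PDGF+p53-/-RBPjk-/- tumours and 9.14, 9.21, 9.01 and 9.01 in PDGF+p53-/- tumours. Control brain read 8.49, 8.82, 8.18 and 8.47, where replicate 2 overlapped the PDGF+p53-/-RBPjk-/- range. The Bmpr1a rises were 0.72 ± 0.13 (adjusted p = 0.000306), 0.45 ± 0.13 (adjusted p = 0.0131) and 0.60 ± 0.13 (adjusted p = 0.00186). The call in PDGF+p53-/-RBPjk-/- tumours was lost without control replicate 3 (0.35, adjusted p = 0.0562) or PDGF+p53-/-RBPjk-/- replicate 1 (0.39, adjusted p = 0.0512), and with housekeeping centring (0.35, adjusted p = 0.0555).

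Bmpr1b read 6.05, 6.32, 7.11 and 6.86 in p53-/-RBPjk-/- tumours, 5.44, 5.87, 5.56 and 5.73 in PDGF+p53-/-RBPjk-/- tumours and 5.54, 5.36, 6.27 and 5.49 in PDGF+p53-/- tumours, against 7.13, 6.73, 7.41 and 6.91 in control brain. Both PDGF types lay wholly below the controls, whereas the p53-/-RBPjk-/- arrays overlapped them. Bmpr1b fell by 1.40 ± 0.23 in PDGF+p53-/-RBPjk-/- tumours (2.64-fold, adjusted p = 0.000109) and fell by 1.38 ± 0.23 in PDGF+p53-/- tumours (2.60-fold, adjusted p = 0.000146). In p53-/-RBPjk-/- tumours the Bmpr1b difference was -0.46 ± 0.23 (adjusted p = 0.129), or -0.64 without replicate 3 (adjusted p = 0.0369). The CAGAC match printed above is the single match in the shown Bmpr1b window, while the Bmpr1a window holds TGGGAA and GGCGCC.

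Acvr1b read 6.51, 6.87, 6.37 and 6.78 in p53-/-RBPjk-/- tumours, 6.42, 6.44, 6.54 and 6.62 in PDGF+p53-/-RBPjk-/- tumours and 6.43, 6.55, 6.79 and 6.22 in PDGF+p53-/- tumours, against 7.33, 7.68, 7.28 and 7.32 in control brain. Every tumour array was below every control array. The Acvr1b differences were -0.77 ± 0.14 (adjusted p = 0.000287), -0.90 ± 0.14 (adjusted p = 8.05e-05) and -0.91 ± 0.14 (adjusted p = 8.50e-05). Tgfbr3 read 5.64, 5.83, 5.61 and 6.19, then 5.33, 5.86, 5.76 and 5.81, then 5.72, 5.35, 5.94 and 5.71 in the same tumour types, against 6.48, 6.86, 6.30 and 6.60 in control brain. It also had no overlap, with differences of -0.74 ± 0.17 (adjusted p = 0.00173), -0.87 ± 0.17 (adjusted p = 0.000527) and -0.88 ± 0.17 (adjusted p = 0.000528).

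The type II receptors Acvr2a and Bmpr2 fell by less than Acvr1b and Tgfbr3 in each tumour type. Acvr2a read 9.11, 8.96, 8.83 and 8.63 in p53-/-RBPjk-/- tumours and 9.11, 9.12, 9.13 and 8.79 in PDGF+p53-/-RBPjk-/- tumours, against 9.52, 9.35, 9.99 and 9.46 in control brain. Neither type overlapped the controls, and the differences were -0.70 ± 0.15 (adjusted p = 0.00118) and -0.54 ± 0.15 (adjusted p = 0.00903). In PDGF+p53-/- tumours Acvr2a fell by 0.43 ± 0.15 (adjusted p = 0.038) with overlap. This call was lost without control replicates 1 or 3 or PDGF+p53-/- replicates 1, 3 or 4 (adjusted p of 0.0564 to 0.149, differences of -0.45 to -0.29) and with only these 2 groups in the fit (adjusted p = 0.0629). Bmpr2 read 10.08, 10.14, 10.13 and 10.04 in p53-/-RBPjk-/- tumours, against 10.72, 10.77, 10.56 and 10.47 in control brain, a difference of -0.53 ± 0.10 (adjusted p = 0.000463). It averaged 10.28 ± 0.13 in PDGF+p53-/-RBPjk-/- tumours and 10.25 ± 0.06 in PDGF+p53-/- tumours (SD, n = 4 each), and fell in both, with differences of -0.35 (adjusted p = 0.0132) and -0.38 (adjusted p = 0.00816). The first of these was lost without PDGF+p53-/-RBPjk-/- replicate 1 (-0.30, adjusted p = 0.0519). Acvr1, a type I receptor for BMPs and activins, fell by 0.45 in p53-/-RBPjk-/- tumours (adjusted p = 0.038). That call was lost without control replicates 1, 2 or 4 or p53-/-RBPjk-/- replicates 2, 3 or 4 (adjusted p of 0.0548 to 0.114, differences of -0.47 to -0.38) and with a sex term (-0.47, adjusted p = 0.0632). Acvr2b and Tgfbr2, the activin and TGF-beta type II receptors, did not pass the test in any comparison, and their differences from control brain ran from 0.03 to 0.34.

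**Figure D2:**
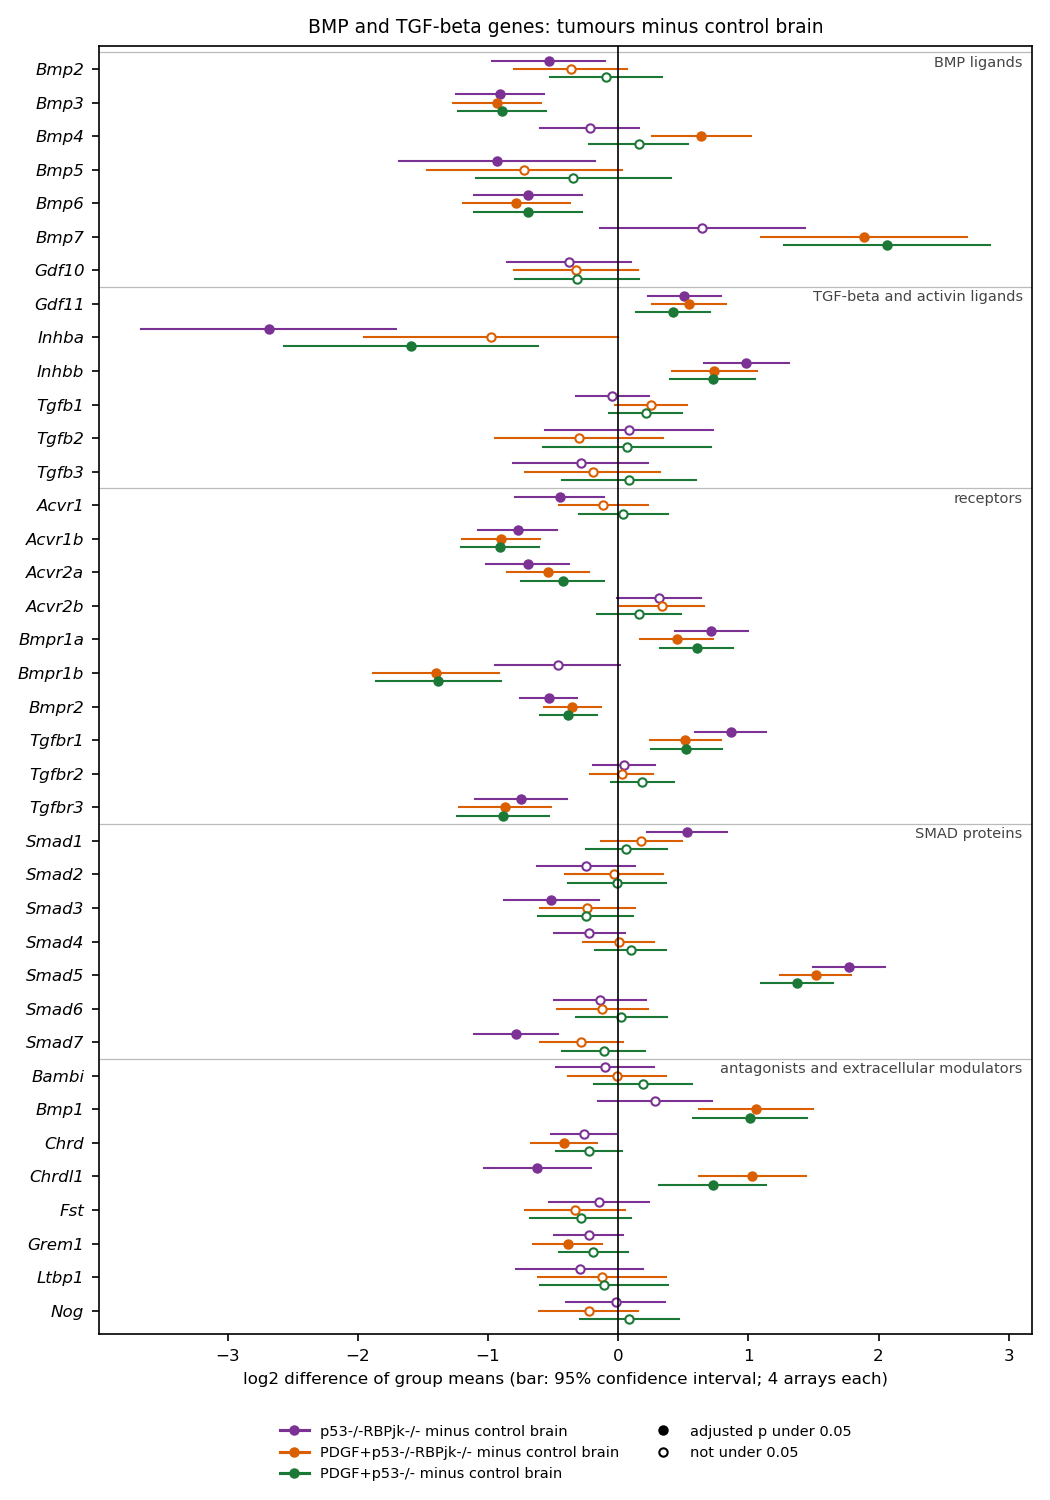
The log2 difference of group means, tumour minus control brain, is drawn for each of the 38 genes with its 95% confidence interval (4 arrays per group); filled points have an adjusted p under 0.05. Bmp7 and Smad5 stand farthest to the right and Inhba in p53-/-RBPjk-/- tumours farthest to the left, at -2.69.

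Among the SMAD proteins Smad5 rose in every tumour type, and no other SMAD passed the test in the PDGF types, where Smad1, Smad2, Smad3 and Smad4 differed from control brain by -0.25 to 0.18. Smad5, a carrier of BMP signals to the nucleus, read 9.56, 9.67, 9.60 and 9.82 in p53-/-RBPjk-/- tumours, 9.26, 9.64, 9.28 and 9.44 in PDGF+p53-/-RBPjk-/- tumours and 9.34, 9.50, 9.16 and 9.05 in PDGF+p53-/- tumours. With 7.73, 8.11, 7.74 and 7.97 in control brain, the lowest tumour array (9.05) stood above the highest control array (8.11). The rises were 1.77 ± 0.13 (3.42-fold, adjusted p = 1.52e-08), 1.52 ± 0.13 (2.86-fold, adjusted p = 1.29e-07) and 1.37 ± 0.13 (2.59-fold, adjusted p = 4.70e-07). These are the smallest adjusted p-values of the 38 genes in each comparison with control brain.

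Smad7, an inhibitory SMAD that BMP and TGF-beta signals induce, read 5.29, 5.27, 5.43 and 5.25 in p53-/-RBPjk-/- tumours, against 6.27, 5.96, 5.88 and 6.25 in control brain. The groups did not overlap, and Smad7 fell by 0.78 ± 0.15 (adjusted p = 0.000466). Its mean was 5.81 ± 0.29 in PDGF+p53-/-RBPjk-/- tumours and 5.98 ± 0.23 in PDGF+p53-/- tumours, against 6.09 ± 0.20 in control brain (SD, n = 4 each), with no call in either. In PDGF+p53-/-RBPjk-/- tumours a fall was called without replicate 2 of that group (-0.42, adjusted p = 0.032) and with array weights (-0.35, adjusted p = 0.0437). Smad1, which also carries BMP signals, rose by 0.53 ± 0.15 in p53-/-RBPjk-/- tumours (adjusted p = 0.00784), with 7.51, 7.71, 7.78 and 7.20 there against 7.03, 7.11, 7.02 and 6.92 in control brain. Smad3, a carrier of TGF-beta and activin signals, fell by 0.51 ± 0.17 in the same tumours (adjusted p = 0.0255), with 7.15, 7.49, 7.21 and 7.46 there and 7.57, 7.86, 8.17 and 7.77 in control brain. The Smad3 call was lost without control replicate 2 (-0.51, adjusted p = 0.0509), control replicate 3 (-0.41, 0.0951), p53-/-RBPjk-/- replicate 1 (-0.45, 0.0718) or p53-/-RBPjk-/- replicate 3 (-0.48, 0.0641), and with a sex term (-0.40, 0.114). Smad2, Smad4 and the inhibitory Smad6 passed no test, and their differences from control brain ran from -0.25 to 0.10.

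**Figure D3:**
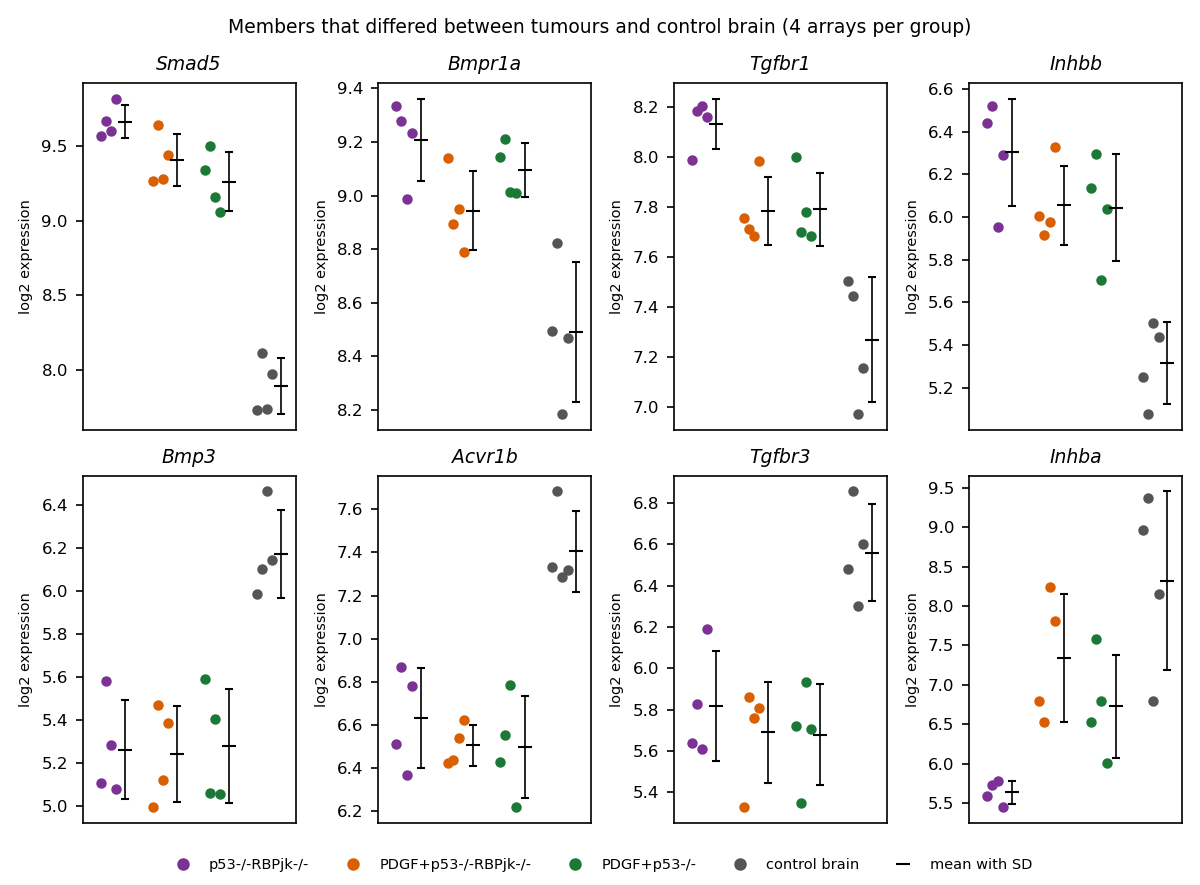
Points are the log2 values of the 4 arrays in each group and the bar beside them is the mean with its SD, for 8 genes that differed from control brain. Smad5, Tgfbr1 and Inhbb lie higher in all 3 tumour types and Bmp3, Acvr1b and Tgfbr3 lower, while the Inhba values of PDGF tumours overlap control replicate 3 at 6.79.

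Of the 8 antagonists and extracellular modulators, 1, 4 and 2 were called in p53-/-RBPjk-/-, PDGF+p53-/-RBPjk-/- and PDGF+p53-/- tumours. These were 12.5%, 50% and 25%, where 36.8%, 33.6% and 31.1% of all genes passed. Chrdl1 and Bmp1 rose in both PDGF types. Chrdl1, a secreted chordin-like antagonist of BMPs, read 6.65, 6.21, 6.93 and 6.15 in p53-/-RBPjk-/- tumours. It read 8.02, 8.09, 8.49 and 7.95 in PDGF+p53-/-RBPjk-/- tumours and 7.55, 8.16, 7.95 and 7.69 in PDGF+p53-/- tumours, against 7.16, 7.18, 7.40 and 6.70 in control brain. Both PDGF types lay wholly above the controls and the p53-/-RBPjk-/- arrays lay below both, with their replicate 3 overlapping control replicate 4. Chrdl1 rose by 1.03 ± 0.20 in PDGF+p53-/-RBPjk-/- tumours (2.04-fold, adjusted p = 0.000445) and by 0.73 ± 0.20 in PDGF+p53-/- tumours (1.66-fold, adjusted p = 0.00784). It fell by 0.62 ± 0.20 in p53-/-RBPjk-/- tumours (adjusted p = 0.0173), and this fall was lost without control replicate 3 (-0.52, adjusted p = 0.0628), p53-/-RBPjk-/- replicate 2 (-0.53, 0.0601) or replicate 4 (-0.51, 0.0645) and with a sex term (-0.56, 0.0596).

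Bmp1, which despite its name is a metalloprotease that processes procollagens and cleaves chordin, read 6.96, 7.61, 6.72 and 7.29 in p53-/-RBPjk-/- tumours. It read 7.98, 8.18, 8.08 and 7.42 in PDGF+p53-/-RBPjk-/- tumours and 7.60, 8.23, 7.51 and 8.16 in PDGF+p53-/- tumours, against 6.93, 6.73, 6.82 and 6.96 in control brain. The PDGF types did not overlap the controls. Bmp1 rose by 1.06 ± 0.21 (2.08-fold, adjusted p = 0.000615) and 1.01 ± 0.21 (2.02-fold, adjusted p = 0.000982) in them, and its difference in p53-/-RBPjk-/- tumours was 0.28 ± 0.21 (adjusted p = 0.326). Chrd, which encodes chordin itself, fell by 0.41 in PDGF+p53-/-RBPjk-/- tumours (adjusted p = 0.012) without overlap. Grem1, the BMP antagonist gremlin, fell by 0.39 in the same group (adjusted p = 0.0236), a call lost without control replicate 1 (-0.30, adjusted p = 0.092), PDGF+p53-/-RBPjk-/- replicate 3 (-0.34, 0.0741) or replicate 4 (-0.38, 0.0506). Its signal was low, with means of 5.26 there and 5.65 in control brain, below the array medians of 5.97 to 6.06. Nog (noggin), Fst (follistatin, which binds activins), Ltbp1 (which holds latent TGF-beta in the matrix) and Bambi (a decoy receptor) passed no test, with differences from control brain of -0.33 to 0.19.

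Loss of RBPJ with the same retrovirus was the question of the comparison between PDGF+p53-/-RBPjk-/- and PDGF+p53-/- tumours. None of the 38 genes changed by limma's test, where 0.0201% of all genes were called (4 of 19936; 0.015% higher and 0.00502% lower). At an unadjusted p under 0.05 there was 1 of 38 (2.63%) beside 1033 of all genes (5.18%). That gene was Bmp4, at 0.48 (95% confidence interval 0.10 to 0.86, adjusted p = 0.839), the lowest adjusted p of the 38. Smad5 differed by 0.14 (interval -0.13 to 0.42), Chrdl1 by 0.30 (-0.11 to 0.71), Bmp7 by -0.17 (-0.96 to 0.62) and Bmpr1b by -0.02 (-0.50 to 0.46). The intervals of Bmp7 and of Inhba (0.61, interval -0.36 to 1.59) leave room for differences of nearly 1 on the log2 scale or more.

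The tumours without the retrovirus differed from the RBPJ-deleted tumours made with it in 4 of 38 genes (10.5%, where 3.27% of all genes passed). Of these, 1 was higher and 3 were lower, where 0.637% of all genes were higher and 2.63% lower (127 and 524). Centred on housekeeping genes, 1 of the 38 was higher and 2 were lower, beside 219 and 222 of all genes. These groups differ in PDGF-B, in the retrovirus and in the source of Cre, which cannot be told apart. The values did not overlap for 3 of the 4, and among all genes for 590 of the 651 called (2.96% of all genes). Chrdl1, with the values above, fell by 1.65 ± 0.20 in p53-/-RBPjk-/- tumours against PDGF+p53-/-RBPjk-/- tumours (3.15-fold, adjusted p = 0.00065). Bmp4 fell by 0.86 ± 0.18 (adjusted p = 0.0168), and Bmp1 fell by 0.77 ± 0.21 (adjusted p = 0.0498) with overlap, while Bmpr1b was higher by 0.93 ± 0.23 (adjusted p = 0.0325). The Bmp4 call was lost without PDGF+p53-/-RBPjk-/- replicate 2 (-0.75, adjusted p = 0.0586). The Bmpr1b call was lost without PDGF+p53-/-RBPjk-/- replicates 1, 2 or 3 or p53-/-RBPjk-/- replicates 3 or 4 (adjusted p of 0.0568 to 0.105, differences of 0.76 to 1.01), and with only the 2 groups in the fit (0.93, adjusted p = 0.0545). The Bmp1 call was lost without any 1 of 11 arrays, all except PDGF+p53-/- replicates 1 to 3, PDGF+p53-/-RBPjk-/- replicate 4 and p53-/-RBPjk-/- replicate 2 (adjusted p of 0.0504 to 0.154, differences of -0.82 to -0.63). It was also lost with housekeeping centring (-0.66, adjusted p = 0.0694) and with only the 2 groups in the fit (-0.77, adjusted p = 0.0962).

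Just outside the threshold, Inhba was -1.71 ± 0.46 (adjusted p = 0.053) and Bmp7 -1.24 ± 0.37 (adjusted p = 0.0818) in p53-/-RBPjk-/- against PDGF+p53-/-RBPjk-/- tumours. Neither gene's arrays overlapped between these 2 groups. Inhba was called without control replicates 2 (adjusted p = 0.042) or 3 (0.0225) or PDGF+p53-/- replicate 2 (0.0456), with only the 2 groups in the fit (0.027), with array weights (0.0189) and without dim genes (0.0451). Bmp7 was called with array weights (-1.17, adjusted p = 0.0435). Smad7, at -0.50 (adjusted p = 0.084), was called without PDGF+p53-/-RBPjk-/- replicate 4 (-0.59, adjusted p = 0.0476).

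Against PDGF+p53-/- tumours, which keep RBPjk as well, p53-/-RBPjk-/- tumours differed in 5 of 38 genes (13.2%, where 5.54% of all genes passed). Of these, 1 was higher and 4 were lower, where 1.93% of all genes were higher and 3.61% lower (385 and 720). Centred on housekeeping genes, 3 of the 38 were higher and 2 were lower, beside 858 and 418 of all genes. In the main fit the values of 3 of the 5 did not overlap, and among all genes those of 887 of the 1105 called (4.45% of all genes). Chrdl1 fell by 1.35 ± 0.20 (2.55-fold, adjusted p = 0.00115), Bmp7 fell by 1.42 ± 0.37 (2.67-fold, adjusted p = 0.0339) and Smad7 fell by 0.67 ± 0.15 (adjusted p = 0.0158). With overlapping values, Bmp1 fell by 0.73 ± 0.21 (adjusted p = 0.0474) and Bmpr1b was higher by 0.92 ± 0.23 (adjusted p = 0.0253). Bmp7 carries the low p53-/-RBPjk-/- replicate 3, without which its difference was -0.87 (adjusted p = 0.0333). Its call was lost without PDGF+p53-/- replicate 2 (-1.23, adjusted p = 0.113) or replicate 4 (-1.44, 0.0627), with trend and robust options (-1.42, 0.0582) and with only the 2 groups in the fit (-1.42, 0.161). For Smad7, the call ended without PDGF+p53-/- replicate 3 (-0.61, 0.0511) or with housekeeping centring (-0.55, 0.0613). For Bmpr1b, leaving out PDGF+p53-/- replicates 2 or 4 or p53-/-RBPjk-/- replicates 3 or 4 gave adjusted p of 0.0664 to 0.0867 (differences of 0.74 to 0.86), and a fit of only the 2 groups gave 0.113 (0.92). For Bmp1, 12 arrays did so, all but PDGF+p53-/- replicates 1 and 3, PDGF+p53-/-RBPjk-/- replicate 4 and p53-/-RBPjk-/- replicate 2 (adjusted p of 0.0507 to 0.146, differences of -0.78 to -0.59), as did housekeeping centring (-0.61, 0.0557), only the 2 groups (-0.73, 0.14) and array weights (-0.64, 0.0979). Gains past the threshold came for Acvr1 without PDGF+p53-/- replicate 3 (-0.62, adjusted p = 0.0389), for Smad1 without PDGF+p53-/- replicate 4 (0.57, 0.0372) or p53-/-RBPjk-/- replicate 4 (0.58, 0.0316), and with housekeeping centring for Smad1 (0.59, 0.0236) and Smad5 (0.52, 0.0263).

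Chrdl1 was the single gene of the 38 called in both comparisons of p53-/-RBPjk-/- with PDGF tumours under all 24 alternatives tried, and both comparisons use the same 4 p53-/-RBPjk-/- arrays. Sex moved with these groups: the arrays showed a female pattern in 4 of 4 p53-/-RBPjk-/- tumours, 1 of 4 PDGF+p53-/-RBPjk-/- tumours, 1 of 4 PDGF+p53-/- tumours and 2 of 4 control brains. Cell markers also differed. Against PDGF+p53-/-RBPjk-/- tumours, where 3.27% of all genes passed, 1 of 11 neuron, 1 of 10 astrocyte, 2 of 10 mural and 1 of 11 myeloid markers were lower in p53-/-RBPjk-/- tumours, and 1 of 9 oligodendrocyte precursor and 1 of 13 meninges and fibroblast markers were higher. Against PDGF+p53-/- tumours, where 5.54% passed, 1 of 11 neuron, 3 of 10 astrocyte, 1 of 9 oligodendrocyte precursor, 1 of 8 endothelial and 1 of 11 myeloid markers were lower, and 2 of 13 meninges and fibroblast, 1 of 9 choroid plexus and ependyma and 1 of 11 myeloid markers were higher. The part of these cells in the results was not tested. Because all 4 p53-/-RBPjk-/- arrays had the female pattern, a sex term cannot fully tell sex apart from tumour type. With sex as a term in the fit, Chrdl1 alone stayed past the threshold in each of these 2 comparisons. The other differences from PDGF+p53-/-RBPjk-/- tumours were then -0.79 for Bmp1 (adjusted p = 0.227), -0.63 for Bmp4 (0.213) and 1.01 for Bmpr1b (0.145). Those from PDGF+p53-/- tumours were -0.75 for Bmp1 (0.187), -1.40 for Bmp7 (0.169), -0.70 for Smad7 (0.0963) and 0.99 for Bmpr1b (0.11).

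**Figure D4:**
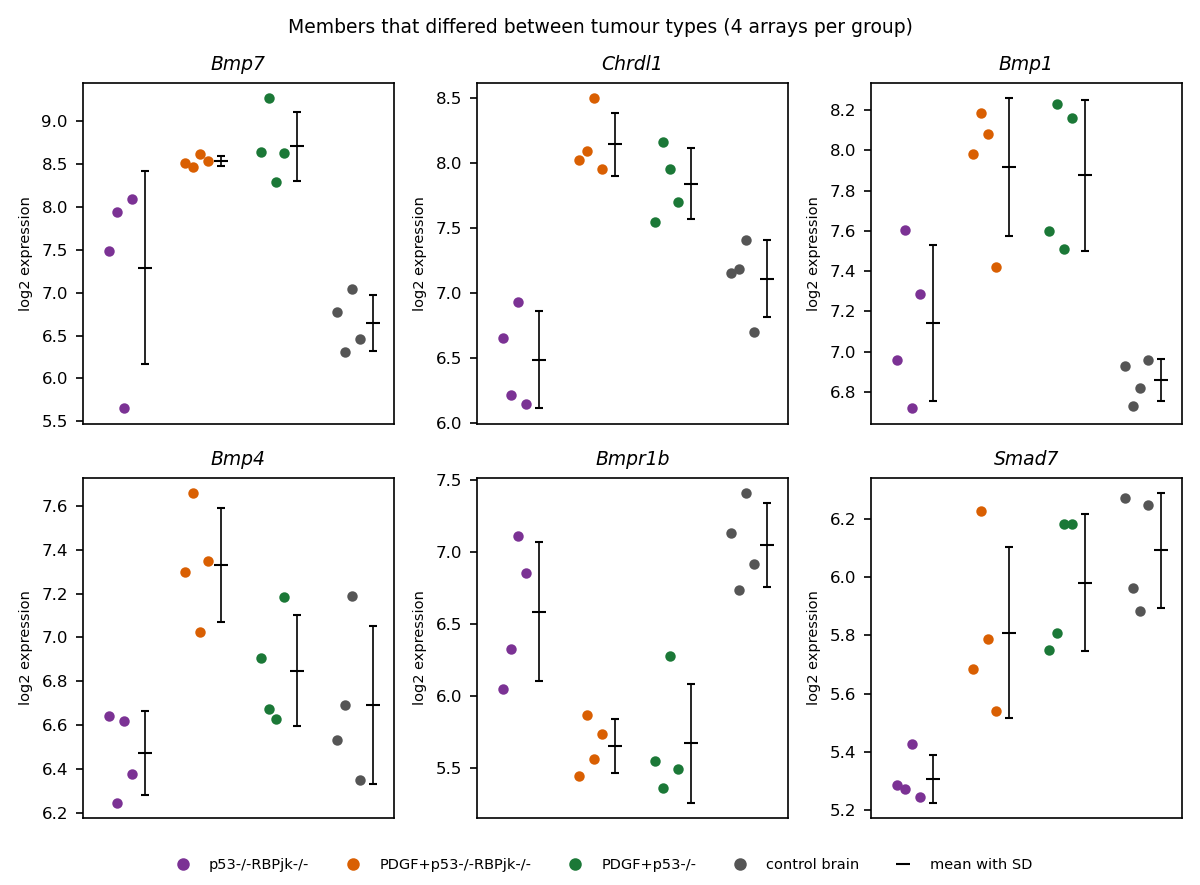
Points are the log2 values of the 4 arrays per group and the bar beside them is the mean with its SD, for the 6 genes that differed between tumour types. Chrdl1 shows p53-/-RBPjk-/- arrays at 6.15 to 6.93, below both PDGF types, and Bmp7 shows the p53-/-RBPjk-/- replicate at 5.65 apart from the other 3.

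**Figure D5:**
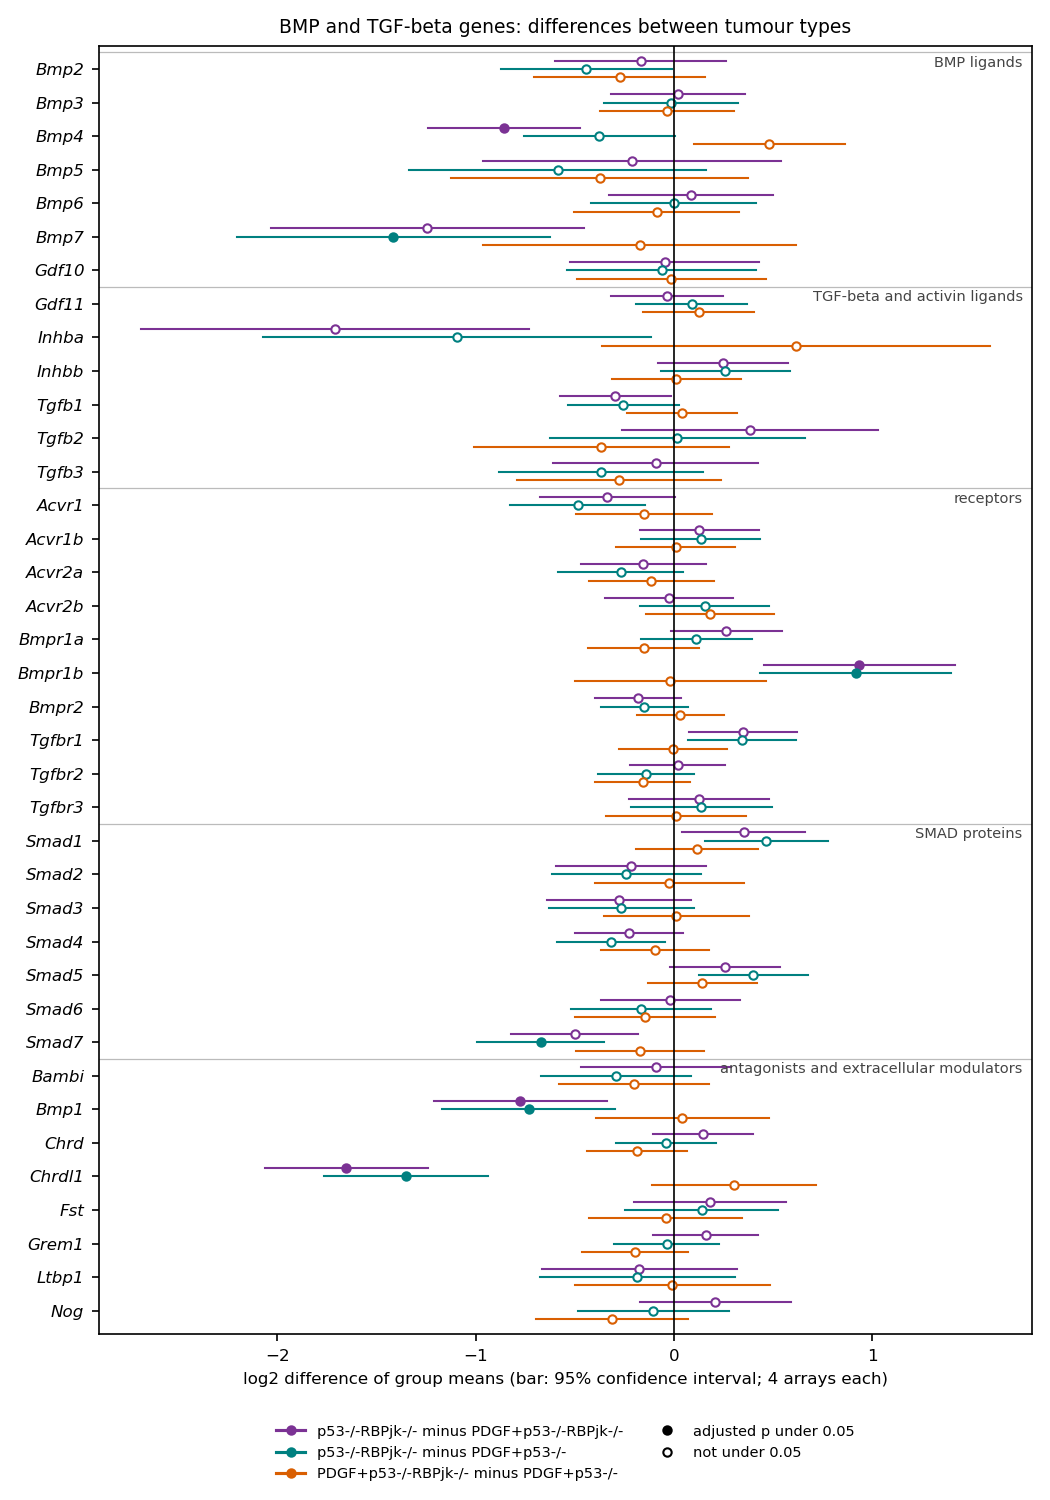
Log2 differences of group means between tumour types are drawn with 95% confidence intervals for the 38 genes (4 arrays per group); filled points have an adjusted p under 0.05. No filled point belongs to PDGF+p53-/-RBPjk-/- minus PDGF+p53-/-, and the lowest filled point against PDGF+p53-/-RBPjk-/- is Chrdl1 at -1.65.

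The other genes of the pathway, taken from lists written from general knowledge, were read in the same fit. Of 18 other ligands, 1 rose and 2 fell in p53-/-RBPjk-/- tumours, and 2 fell in each PDGF type. These were 16.7%, 11.1% and 11.1% of the list, where 36.8%, 33.6% and 31.1% of all genes were called in p53-/-RBPjk-/-, PDGF+p53-/-RBPjk-/- and PDGF+p53-/- tumours. The mean of this list was low, at 4.82 to 5.15 over the arrays, below the array medians of 5.97 to 6.06. Whether low signal limited these calls was not tested. Inha, the inhibin alpha subunit, was among those that fell, with differences of -0.71, -0.91 and -0.82 in p53-/-RBPjk-/-, PDGF+p53-/-RBPjk-/- and PDGF+p53-/- tumours. Of 10 other receptors and co-receptors, 3, 2 and 2 fell and none rose, where 20.4%, 17.9% and 17.6% of all genes fell. Acvr1c, a type I receptor for nodal and activins, fell in all 3, with differences of -3.0 ± 0.33, -3.0 ± 0.33 and -2.92 ± 0.33 (adjusted p = 1.02e-06, 1.48e-06 and 2.49e-06). Of 22 other antagonists and modulators, 10, 7 and 5 fell and 2, 1 and 1 rose (54.5%, 36.4% and 27.3% called). Among these, Vwc2l, a secreted protein with a chordin-like domain, fell (-3.19, -2.83 and -2.83), and Bgn, the matrix proteoglycan biglycan, rose by 1.39, 1.60 and 1.29. Htra1, a secreted protease, fell by 2.57 ± 0.28 in p53-/-RBPjk-/- tumours (adjusted p = 1.25e-06), and was also lower there than in PDGF+p53-/-RBPjk-/- tumours (-1.57, adjusted p = 0.00737) and PDGF+p53-/- tumours (-1.82, adjusted p = 0.00169).

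Among called genes for the latency and activation of TGF-beta, rises outnumbered falls, 3 of 14 against 1 in p53-/-RBPjk-/- tumours and 5 of 14 against 1 in both PDGF types (16.4%, 15.7% and 13.6% of all genes rose). The called shares were 28.6%, 42.9% and 42.9% of the list, beside 36.8%, 33.6% and 31.1% of all genes. The median differences of the whole list were 0.10, -0.0006 and 0.15. Fbn2, the microfibril protein fibrillin-2, rose by 1.77 ± 0.27 in p53-/-RBPjk-/- tumours (adjusted p = 3.99e-05), 3.49 ± 0.27 in PDGF+p53-/-RBPjk-/- tumours (adjusted p = 3.74e-08) and 3.31 ± 0.27 in PDGF+p53-/- tumours (adjusted p = 9.03e-08). Fbn2 was lower in p53-/-RBPjk-/- than in PDGF+p53-/-RBPjk-/- tumours (-1.71, adjusted p = 0.00299) and PDGF+p53-/- tumours (-1.53, adjusted p = 0.00372). Itgav and Itgb8 encode the subunits of an integrin that frees TGF-beta from its latent form. Itgb8 rose by 0.69, 0.99 and 1.14 in p53-/-RBPjk-/-, PDGF+p53-/-RBPjk-/- and PDGF+p53-/- tumours. Itgav rose by 1.36 and 1.60 in PDGF+p53-/-RBPjk-/- and PDGF+p53-/- tumours, was 0.31 from control brain in p53-/-RBPjk-/- tumours (adjusted p = 0.339), and was lower there than in either PDGF type (-1.05, adjusted p = 0.0222, and -1.29, adjusted p = 0.00446).

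Inside the cell, 5, 6 and 6 of 23 regulators of SMADs rose and 6, 4 and 8 fell in p53-/-RBPjk-/-, PDGF+p53-/-RBPjk-/- and PDGF+p53-/- tumours. These were 47.8%, 43.5% and 60.9% of the list, beside 36.8%, 33.6% and 31.1% of all genes. Nedd4l, a ubiquitin ligase that acts on SMAD2 and SMAD3, fell (-2.70, -2.71 and -2.59), and Tgif1, a repressor that binds SMADs, rose by 1.75, 1.0 and 0.85. Zeb1, a repressor that also binds SMADs, rose by 1.12 and 1.44 in PDGF+p53-/-RBPjk-/- and PDGF+p53-/- tumours. In p53-/-RBPjk-/- tumours Zeb1 was -0.05 from control brain (adjusted p = 0.872), and it was lower there than in either PDGF type (-1.18, adjusted p = 0.00426, and -1.49, adjusted p = 0.000583).

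Common target genes of the pathway did not move one way. Of 23 measured, 3 rose in each tumour type and 5, 3 and 3 fell, in the same order, which includes Smad6, Smad7 and Bambi from the 38. These were 34.8%, 26.1% and 26.1% of the list, beside 36.8%, 33.6% and 31.1% of all genes. Cdkn2b, a cell cycle inhibitor that TGF-beta induces, rose by 1.12 ± 0.23, 1.86 ± 0.23 and 1.64 ± 0.23 (adjusted p = 0.000848, 6.97e-06 and 3.09e-05). Id4, one of the inhibitors of differentiation that BMPs induce, fell in all 3, with differences of -1.44 ± 0.31, -1.38 ± 0.31 and -1.03 ± 0.31 (adjusted p = 0.00133, 0.00221 and 0.0181). Its relative Id2 fell by 1.16 ± 0.22 in p53-/-RBPjk-/- tumours (adjusted p = 0.000444) and was lower there than in PDGF+p53-/-RBPjk-/- tumours (-0.85, adjusted p = 0.0485) and PDGF+p53-/- tumours (-1.01, adjusted p = 0.0146). Id1 was instead higher in p53-/-RBPjk-/- than in PDGF+p53-/- tumours (0.76, adjusted p = 0.0249), with 0.26 from control brain in p53-/-RBPjk-/- tumours (adjusted p = 0.322). None of the genes in these 6 lists passed the test between PDGF+p53-/-RBPjk-/- and PDGF+p53-/- tumours.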

How the data were processed

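The labels' protocols give Trizol extraction of total RNA and biotin labelling. The deposited table holds log2 values for 35556 probe sets. The authors computed them by RMA through oligo, per the submitters' processing notes. Versions, filters and later scaling are not given in the sources consulted. Probe sets were named by the array annotation given with the data, with symbols updated against GRCm38.p6 (21701 probe sets matched, 2 symbols changed), and the probe set with the highest mean stood for a gene. RMA equalises arrays, so a change in total RNA per cell cannot be seen. The number of arrays limits the precision (median SE 0.15).

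Tests were run in limma 3.58.1 under R 4.3.3 on all 16 arrays (lmFit with eBayes; 12 residual and 5.33 prior degrees of freedom), after a check on simulated data. Python 3.11.15 served for tables and figures. Array values are given for most genes past the test without overlap. Gdf11, and Bmpr2 in the PDGF types, are given by group means, and Bmp2 and Chrd by differences. None of these 4 genes overlapped control brain where called. Up to 4 genes per other list are named. The 38 genes, their roles and the lists were chosen with earlier results of these data known. The alternatives left out each of the 16 arrays in turn or changed 1 of 8 settings: the mean of a gene's probe sets, leaving out dim genes (mean below 5), trend and robust options, centring on 10 housekeeping genes, only the 2 groups in the fit, array weights, a replicate block and a sex term.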

Additional observations from a re-analysis of the deposited data

Results flagged for a closer look

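In 152 sets of 4 values (38 genes in 4 groups), 10 held an array set apart from the other 3 by Dixon's test, where chance gives about 1 in 20. Smad4 read 8.35 in p53-/-RBPjk-/- replicate 1, against 8.57 to 8.58 in the other 3. Tgfb3 read 5.23 in p53-/-RBPjk-/- replicate 3, against 6.36 to 6.54. In PDGF+p53-/-RBPjk-/- replicate 4, Acvr2a read 8.79 (others 9.11 to 9.13) and Smad2 8.10 (others 8.88 to 8.91). Fst read 5.38 in PDGF+p53-/-RBPjk-/- replicate 2 (others 5.81 to 5.89). Tgfb1 read 5.84 in PDGF+p53-/- replicate 3 (others 6.30 to 6.34) and Nog 5.40 in PDGF+p53-/- replicate 4 (others 4.90 to 4.95). In control brain, replicate 2 read 7.68 for Acvr1b (others 7.28 to 7.33) and 6.44 for Fst (others 5.92 to 5.97), and replicate 1 read 5.92 for Grem1 (others 5.55 to 5.58).

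The shift from control brain differed between tumour types, by limma's test of the difference itself, for 6 genes. Between p53-/-RBPjk-/- and PDGF+p53-/-RBPjk-/- tumours the differences were -1.65 for Chrdl1, -0.86 for Bmp4, -0.77 for Bmp1 and 0.93 for Bmpr1b. Between p53-/-RBPjk-/- and PDGF+p53-/- tumours they were -1.42 for Bmp7, -1.35 for Chrdl1, -0.73 for Bmp1, -0.67 for Smad7 and 0.92 for Bmpr1b.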

How the results depend on the processing

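Of the calls against control brain, 14 of 19 in p53-/-RBPjk-/-, 15 of 18 in PDGF+p53-/-RBPjk-/- and 13 of 16 in PDGF+p53-/- tumours were kept under all 24 alternatives, and no called difference changed sign. Leaving out 1 array gave 15 to 19, 16 to 19 and 14 to 16 calls. Between tumour types the counts depended on the setting. For p53-/-RBPjk-/- against PDGF+p53-/-RBPjk-/- tumours, 4 of the 38 genes and 651 of all genes were called, against 1 and 61 with a sex term, 395 of all genes with only the 2 groups, and 1198 with array weights. Without 1 array the counts were 1 to 5 and 176 to 806, and they fell by over 1.5 times without PDGF+p53-/-RBPjk-/- replicates 1 (2 and 238), 2 (1 and 313) or 3 (2 and 176) or p53-/-RBPjk-/- replicates 3 (2 and 362) or 4 (2 and 396). For p53-/-RBPjk-/- against PDGF+p53-/- tumours, 5 and 1105 were called, against 1 and 183 with a sex term, and 2 and 289 with only the 2 groups. Without 1 array they were 2 to 5 and 553 to 1323, lower by over 1.5 times without PDGF+p53-/- replicate 2 (2 and 553), PDGF+p53-/- replicate 3 (702 of all genes), PDGF+p53-/- replicate 4 (3 of the 38) or p53-/-RBPjk-/- replicate 3 (3 and 727). Between PDGF+p53-/-RBPjk-/- and PDGF+p53-/- tumours, 4 of all genes were called, 2 with housekeeping centring or the replicate block and 2 to 7 without 1 array (2 without control replicate 2, PDGF+p53-/- replicate 2, p53-/-RBPjk-/- replicate 3 or any PDGF+p53-/-RBPjk-/- array; 7 without PDGF+p53-/- replicate 4). The cause was not tested. Centring on housekeeping genes moved the median of all genes to -0.13 in PDGF+p53-/-RBPjk-/- and -0.15 in PDGF+p53-/- tumours against control brain. It moved it to 0.11 and 0.13 for p53-/-RBPjk-/- against the same 2 types. The split of all calls into higher and lower then became 2411 and 4246 (main 3126 and 3576), 2024 and 4336 (main 2703 and 3505), 219 and 222 (main 127 and 524) and 858 and 418 (main 385 and 720).

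The labels do not say whether arrays with the same replicate number belong together. After each gene's group mean was subtracted, the 24 pairs of same-numbered arrays correlated at -0.12 to 0.18, with 7 pairs above 0.1. By the mean of these correlations, 7 of 16 arrays went best with their own number. No chance level was computed for these counts, so they do not settle whether the numbers pair the arrays. With the replicate block, 17, 18 and 16 of the 38 genes were called against control brain in p53-/-RBPjk-/-, PDGF+p53-/-RBPjk-/- and PDGF+p53-/- tumours, and 4, 5 and 0 between tumour types in the order above. The calls it ended were Bmp2 (adjusted p = 0.0528) and Bmp5 (0.0648) in p53-/-RBPjk-/- tumours. Bmp2 was also lost with housekeeping centring (0.0618) and array weights (0.0832), and Bmp5 with array weights (0.0776) and trend and robust options (0.0741).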
